A study of Homo sapiens with 6 samples.

Results

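The 31 genes described here encode the enzymes of cholesterol synthesis, the proteins that control the transcription factor SREBP2, and the sterol-transport, LXR and efflux genes that answer to cellular sterol. They were listed by symbol for their place in the pathway, and all 31 were matched among the 20036 Ensembl genes of the deposited table. RNA-seq was carried out on MV411, an established leukaemia cell line of monocytic character with a KMT2A rearrangement and an activated FLT3, labelled wild type. The corilagin group (3 libraries) was cultured for 48 h with corilagin, an ellagitannin polyphenol found in several medicinal plants, and the control group (3 libraries) for 48 h with DMSO. The sources used here give no dose. The labels do not say that replicates were separate cultures. A p-value here therefore sets the group difference against the spread between libraries, and that spread may be technical variation.

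Cells make cholesterol from acetyl-CoA through mevalonate, the linear isoprenoids, squalene and lanosterol, followed by a series of late sterol steps. When sterol in the endoplasmic reticulum is low, the escort protein SCAP carries SREBP2 to the Golgi, where proteases release its active part, and INSIG proteins hold the complex back when sterol is plentiful. The LXR nuclear receptors respond to oxysterols, the oxidized products that form when sterol is abundant, and switch on efflux pumps and a ligase that removes lipoprotein receptors.

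The unit is FPKM, a fragment count scaled to gene length and library total, so levels can be set side by side between genes. Library totals inferred from the values ran from 17776956 to 21640689 fragments. A gene was tested where its mean over the 6 libraries reached 1 FPKM. That left 29 of the 31, each measured by 91 to 17485 fragments per library. ABCA1 passed that filter with a corilagin mean just below it, at 0.991 FPKM. Differences are corilagin minus DMSO on the log2(FPKM + 1) scale from limma with Benjamini-Hochberg adjustment over all 9868 genes tested, and folds are ratios of mean FPKM. With 3 libraries against 3, an exact 2-sided permutation test of a single gene cannot go below p = 0.1, so the calls rest on the fit across genes. DMSO replicates 1 and 2 stood apart from the other 4 libraries in AU-rich messages and, in the opposite direction, in GC-rich ones. Over the tested genes with transcripts of 31.3% to 39.0% GC, their mean deviation was -0.50 and -0.43 on the log2 scale, against 0.24 in DMSO replicate 3 and 0.20 to 0.26 after corilagin. Over those of 60.7% to 76.8% GC it was 0.22 in both, against -0.09 in DMSO replicate 3 and -0.15 to -0.10 after corilagin. The part of this in the results was not tested. Values with the GC trend of each library taken out, and values against DMSO replicate 3 by itself, are given beside those as deposited. In the latter, the lone control is assumed to vary like the corilagin libraries.

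After corilagin, messages of nearly the whole synthesis route were higher, while those of SREBP2 itself and of the LXR arm did not pass the test as deposited. Of 29 tested genes, 16 rose, 2 fell and 11 did not pass. Of all genes tested, 25.4% were called, 11.9% higher and 13.5% lower. A count model for recovered fragments, limma-voom, also called 16 higher and 2 lower, against 26.0% of all genes (12.5% higher and 13.4% lower). The rises were 14 of the 18 tested synthesis enzymes together with INSIG1 and STARD4, and the falls were PMVK and SCAP. The median difference was 0.78 over the synthesis enzymes and 0.17 over the 11 other tested genes, against 0.03 over all genes tested. Every corilagin library lay above every DMSO library for 21 of the 29 and below for 2. Of all genes tested, 48.3% were separated in this way, 25.0% upward and 23.3% downward. The FPKM of the 18 tested synthesis enzymes summed to 670, 661 and 650 in corilagin replicates 1, 2 and 3, and to 419, 423 and 402 in the DMSO replicates. In RNA from a whole culture, more message per cell and a larger share of cells that carry it cannot be told apart.

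**Figure D1:**
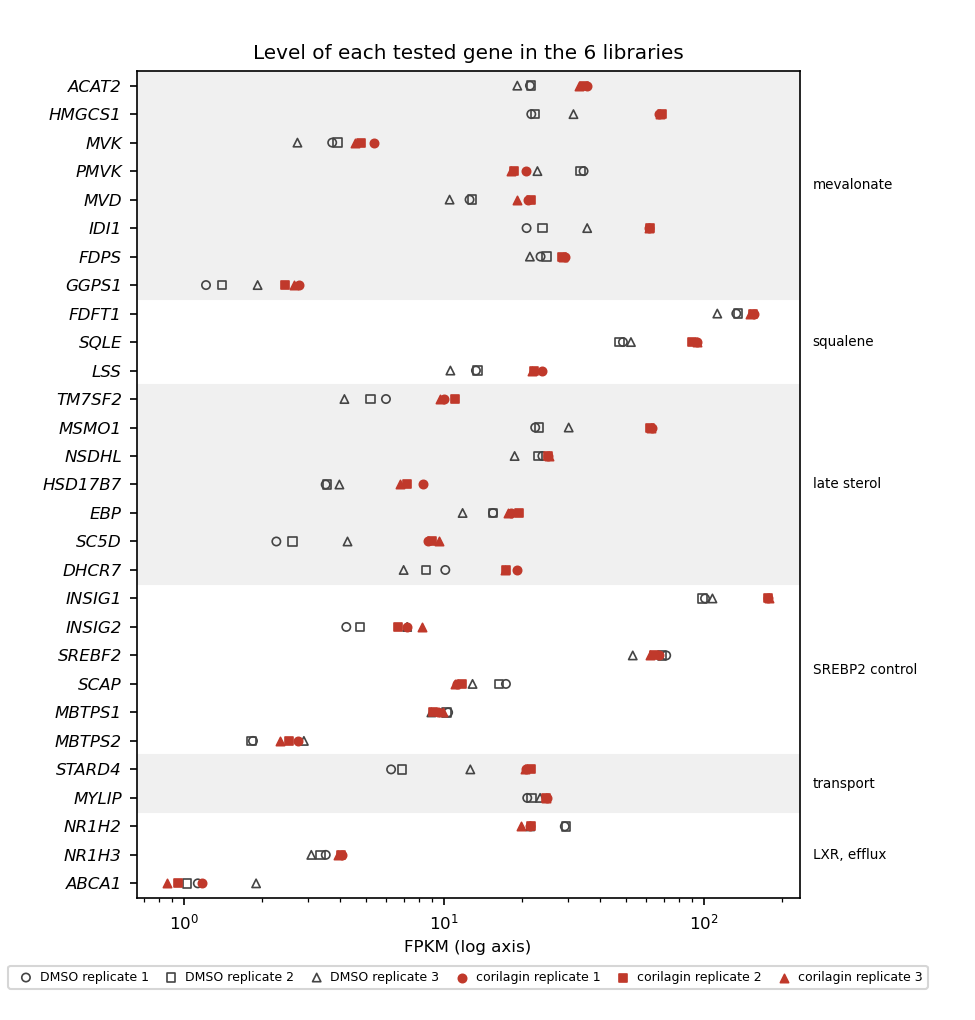
FPKM of each tested gene (log axis, rows ordered by pathway step) in the 3 corilagin libraries (filled) and the 3 DMSO libraries (open). The filled symbols lie to the right of all open symbols for 21 of the 29 genes and to their left for PMVK and SCAP.

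Promoter sequences are shown for the 3 synthesis genes and the 1 other gene with the largest log2 differences as deposited, because these genes moved together. They run from 250 bases before to 50 bases after the gene start in RefSeq, build GRCh38.p14. HMGCS1 is at chr5:43313363-43313662 on the minus strand, SC5D at chr11:121292521-121292820 on the plus strand, MSMO1 at chr4:165327419-165327718 on the plus strand and STARD4 at chr5:111512486-111512785 on the minus strand. Both strands were searched for CCAAT, the box read by the factor NF-Y, for the E-box CACGTG, and for TCACNCCAC, a core of the sterol regulatory element. None of these motifs overlapped another in the 4 promoters. Capitals mark the matches, and on the opposite strand the CCAAT box reads ATTGG.
HMGCS1: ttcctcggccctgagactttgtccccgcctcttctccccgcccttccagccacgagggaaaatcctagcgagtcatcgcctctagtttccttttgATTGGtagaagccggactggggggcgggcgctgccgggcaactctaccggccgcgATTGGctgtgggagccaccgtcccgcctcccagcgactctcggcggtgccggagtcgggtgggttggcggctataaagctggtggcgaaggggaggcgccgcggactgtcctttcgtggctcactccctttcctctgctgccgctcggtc
SC5D: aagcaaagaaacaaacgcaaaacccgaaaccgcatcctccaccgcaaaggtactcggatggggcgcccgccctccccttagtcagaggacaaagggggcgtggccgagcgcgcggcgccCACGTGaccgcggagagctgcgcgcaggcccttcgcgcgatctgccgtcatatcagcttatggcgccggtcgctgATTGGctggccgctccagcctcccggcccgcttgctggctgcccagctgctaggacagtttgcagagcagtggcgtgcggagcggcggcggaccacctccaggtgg
MSMO1: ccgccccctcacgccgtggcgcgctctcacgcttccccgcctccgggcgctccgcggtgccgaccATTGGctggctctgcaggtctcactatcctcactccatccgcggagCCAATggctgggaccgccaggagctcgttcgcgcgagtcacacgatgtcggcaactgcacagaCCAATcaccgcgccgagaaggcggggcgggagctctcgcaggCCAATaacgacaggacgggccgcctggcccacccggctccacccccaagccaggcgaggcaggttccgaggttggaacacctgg
STARD4: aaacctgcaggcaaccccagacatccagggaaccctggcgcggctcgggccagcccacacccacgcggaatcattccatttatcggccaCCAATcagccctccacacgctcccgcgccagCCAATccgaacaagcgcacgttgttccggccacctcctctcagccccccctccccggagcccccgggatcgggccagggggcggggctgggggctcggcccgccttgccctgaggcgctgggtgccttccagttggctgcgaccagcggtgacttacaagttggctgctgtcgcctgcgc

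HMGCS1 held 2 CCAAT boxes, SC5D 1 box and 1 E-box, MSMO1 4 boxes and STARD4 2 boxes. Of the 31 genes, 27 had a promoter in the RefSeq table. A CCAAT box was present in 12 of the 14 rising genes with a promoter there, and in 12 of the 16 synthesis genes. It was present in 16 of all 27, against 35.7% of the 27305 promoters in the table. The E-box was present in 3 of the 14 rising genes (LSS, SC5D and INSIG1), against 7.43% of all promoters. Over the 27 it was present in 5, also in SCAP, which fell, and in ABCA1, which did not pass. The exact sterol regulatory core was found in 1 of the 27 promoters, that of SREBF2, as TCACCCCAC starting 133 bases before the gene start (position -133), against 1.15% of all promoters. These are matches of letters in a short window and not measured binding sites.

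Of the 8 mevalonate genes, 7 rose and 1 fell. HMGCS1, HMG-CoA synthase (ENSG00000112972, GRCh38 chromosome 5, 43289395 to 43313512, minus strand), was at 67.3, 69.2 and 67.6 FPKM in corilagin replicates 1, 2 and 3 and at 21.7, 22.4 and 31.5 FPKM in the DMSO replicates. The groups did not overlap, and DMSO replicate 3 was the highest control. Its difference was 1.42 (SE 0.141, limma adjusted p = 0.00245), the 10th largest rise of the 9868 genes tested on this scale, and 1.07 with the GC trend removed. By the ratio of mean FPKM it rose 2.70-fold. IDI1, the isomerase that makes the reactive isoprenoid unit, was at 61.6, 62.3 and 61.6 FPKM after corilagin and at 20.8, 24.0 and 35.6 FPKM in DMSO. The control libraries spread widely while the corilagin libraries were nearly equal. The mean rose 2.31-fold (difference 1.21, SE 0.180, limma adjusted p = 0.00764), or 1.74-fold against DMSO replicate 3.

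ACAT2, the cytosolic thiolase that joins acetyl-CoA units at the start of the route, was at 35.6, 34.7 and 33.2 FPKM against 21.4, 21.7 and 19.2 FPKM in DMSO. MVD, which decarboxylates mevalonate diphosphate, was at 21.0, 21.7 and 19.1 FPKM against 12.6, 12.8 and 10.5 FPKM. Both rose without overlap, 1.66-fold and 1.72-fold, and in both DMSO replicate 3 was the lowest control. MVK, mevalonate kinase, was at 5.39, 4.82 and 4.54 FPKM against 3.72, 3.90 and 2.73 FPKM (1.42-fold, limma adjusted p = 0.0485). FDPS, which makes farnesyl diphosphate, was at 29.2, 28.5 and 28.8 FPKM against 23.5, 24.8 and 21.4 FPKM (1.24-fold, limma adjusted p = 0.0371). GGPS1, on the branch to protein geranylgeranylation, was at 2.77, 2.44 and 2.65 FPKM against 1.22, 1.40 and 1.92 FPKM (1.73-fold, limma adjusted p = 0.0201). The calls of MVK, FDPS and GGPS1 were lost when any library but DMSO replicate 3 was left out (adjusted p from 0.0590 to 0.161 over the 3 genes). Those fits called far fewer of all genes too, 125 to 373 higher and 175 to 482 lower, against 1171 and 1331 with all 6 libraries. The same holds for the calls lost on leaving out 1 library that are given below. GGPS1 also missed the threshold with the GC trend removed (difference 0.20, adjusted p = 0.0585).

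PMVK, phosphomevalonate kinase (ENSG00000163344, chromosome 1, 154924734 to 154936991, minus strand), moved against its neighbours in the route. It was at 20.7, 18.6 and 18.1 FPKM after corilagin and at 34.5, 33.6 and 22.9 FPKM in DMSO. All corilagin libraries lay below all controls, and DMSO replicate 3 lay close to the corilagin group. The mean fell to 0.631 of DMSO (difference -0.62, SE 0.159, limma adjusted p = 0.0328), or to 0.835 of DMSO replicate 3. The difference was -0.42 with the GC trend removed (adjusted p = 0.00386), and the call was lost without any library other than DMSO replicate 3 (adjusted p from 0.0956 to 0.128).

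Of the 3 squalene-level enzymes, SQLE and LSS rose. SQLE, the squalene epoxidase and a rate-limiting enzyme of the later route, was at 94.0, 90.3 and 93.8 FPKM against 48.9, 47.3 and 52.5 FPKM in DMSO. The controls lay close together, and the 1.87-fold rise (difference 0.89, SE 0.0741, limma adjusted p = 0.00189) was 0.85 with the GC trend removed and 0.81 against DMSO replicate 3. LSS, which cyclizes the epoxide to lanosterol, was at 23.8, 22.1 and 21.8 FPKM against 13.3, 13.5 and 10.6 FPKM (1.81-fold, limma adjusted p = 0.00505). FDFT1, squalene synthase, was the most abundant synthesis enzyme in both groups, at 155, 155 and 150 FPKM against 133, 136 and 113 FPKM. Its groups did not overlap, yet the difference of 0.27 missed the threshold (limma adjusted p = 0.0626) and passed with the GC trend removed (0.30, adjusted p = 0.00630).

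Among the late sterol enzymes, 5 of 7 tested members rose, none fell, and the median difference was 0.89. SC5D, a sterol desaturase (ENSG00000109929, chromosome 11, 121292453 to 121308694, plus strand), was at 8.71, 8.98 and 9.57 FPKM after corilagin and at 2.27, 2.62 and 4.26 FPKM in DMSO. The 2.98-fold rise (difference 1.35, SE 0.174, limma adjusted p = 0.00470) was 2.13-fold against DMSO replicate 3, the highest control. MSMO1, the sterol methyl oxidase, was at 63.4, 61.9 and 62.8 FPKM against 22.5, 23.3 and 30.2 FPKM in DMSO. It rose 2.48-fold (difference 1.29, SE 0.118, limma adjusted p = 0.00198), and its difference was 0.86 with the GC trend removed.

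DHCR7, the reductase that yields cholesterol at the end of one branch, was at 19.2, 17.3 and 17.1 FPKM after corilagin against 10.1, 8.54 and 7.00 FPKM in DMSO. TM7SF2, a sterol reductase of the step after lanosterol demethylation, was at 10.0, 11.0 and 9.67 FPKM against 5.99, 5.22 and 4.14 FPKM. In both genes DMSO replicate 3 was the lowest control. The differences of 0.99 and 0.89 (limma adjusted p = 0.00489 and 0.00676) were larger with the GC trend removed, 1.17 and 1.13. HSD17B7, a ketoreductase with a near-identical pseudogene that makes its reads uncertain, was at 8.30, 7.21 and 6.81 FPKM against 3.51, 3.55 and 3.96 FPKM (2.02-fold, limma adjusted p = 0.00348). EBP, a sterol isomerase, was at 18.1, 19.5 and 17.7 FPKM against 15.5, 15.5 and 11.8 FPKM, and NSDHL, a sterol dehydrogenase, at 25.1, 25.1 and 25.3 FPKM against 23.9, 23.0 and 18.7 FPKM. Neither passed as deposited (adjusted p = 0.0610 and 0.167), although their groups did not overlap, and both passed with the GC trend removed (adjusted p = 0.000861 and 0.00880).

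CYP51A1, lanosterol demethylase, was below the filter and not tested, at 0.986, 0.686 and 0.747 FPKM after corilagin and 0.415, 0.418 and 0.499 FPKM in DMSO, from 34 to 89 fragments per library. All corilagin libraries lay above all controls. In GENCODE 29, 79.4% of its exonic bases are shared with AC000120.2, a protein-coding gene on the same strand. The sources used here do not say how such reads were counted. Same-strand genes cover 37.3% of the exonic bases of GGPS1 and 13.4% of those of MBTPS2. Genes on the opposite strand cover 52.3% of the exonic bases of ACAT2, 18.6% of those of FDPS, 15.0% of those of HMGCS1 and 14.8% of those of IDI1. The protocol does not state that strand was kept, so over the shared bases reads of these genes and their partners cannot be told apart.

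The GC content of the rising genes lay on both sides of the median of all tested genes (48.4%). The 7 rising genes above it, among them MVD at 63.7% and TM7SF2 at 64.2%, all had larger differences once the GC trend was removed. The 9 below it, among them MSMO1 at 38.1% and STARD4 at 34.2%, all had smaller ones. The falling genes PMVK (59.5%) and SCAP (62.3%) lay above it. Their differences of -0.62 and -0.41 shrank to -0.42 and -0.19 with the GC trend removed. With that trend removed, 15 of the 16 rises kept their call, and 20 genes were higher and 3 lower. Of all genes, 44.4% were then called, 21.4% higher and 23.0% lower, so the background rose as well. Against DMSO replicate 3 by itself, 21 of the 29 were called higher and 2 lower, against 37.9% of all genes (19.5% higher and 18.4% lower). The 2 lower were PMVK and ABCA1. ABCA1 passed the filter of that fit through its value in this 1 control, so its call is no support for a fall. Against that control 23 of the 29 were higher in every corilagin library and 4 lower, against 40.9% and 38.4% of all genes. The median over the synthesis enzymes was 0.79 there. Against DMSO replicates 1 and 2, 23 genes were called higher and 4 lower, but 77.3% of all genes were called too (40.8% higher and 36.5% lower).

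**Figure D2:**
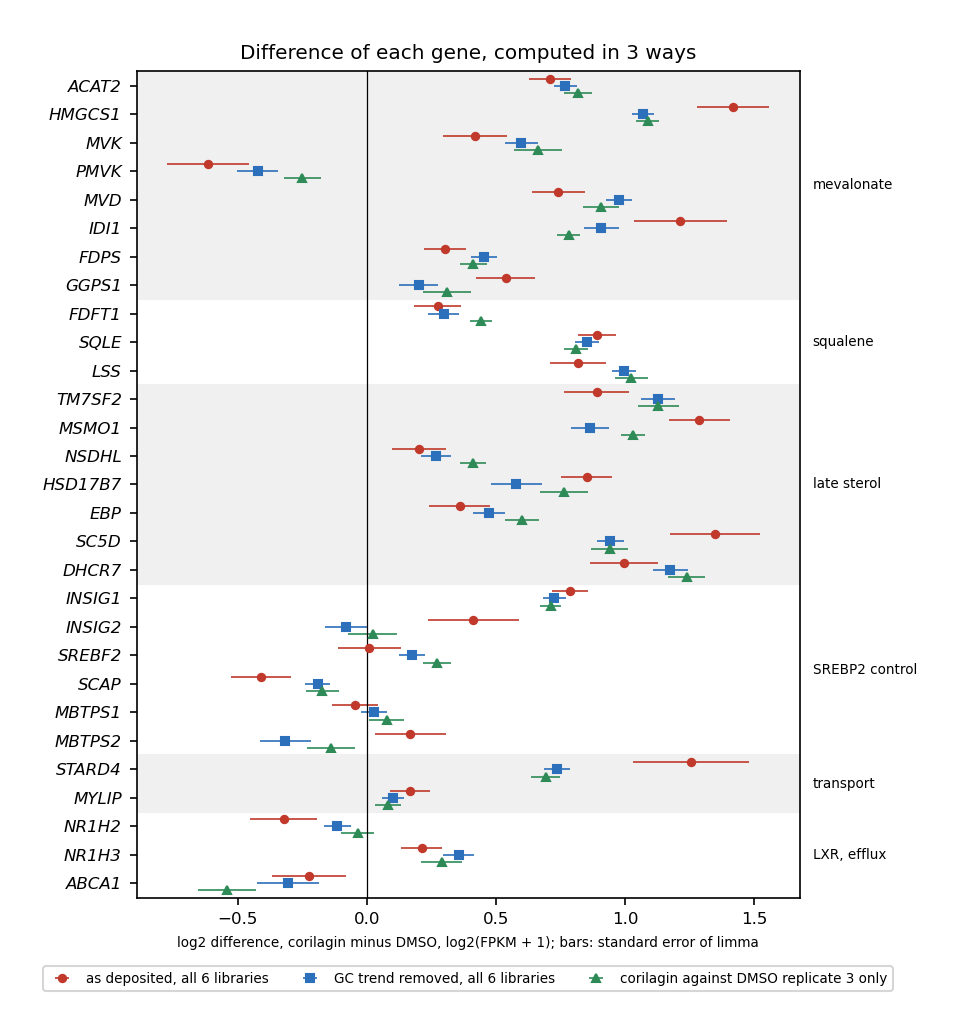
Difference of each tested gene (log2(FPKM + 1), corilagin minus DMSO) with limma's standard error, as deposited (circles), with the GC trend removed (squares) and against DMSO replicate 3 by itself (triangles). The synthesis enzymes other than PMVK stay right of 0 in all 3, and INSIG2, MBTPS1 and MBTPS2 have values on both sides of it.

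In the SREBP2 control group, 1 of 6 genes rose, 1 fell and 4 did not pass. INSIG1, which holds SCAP back in the endoplasmic reticulum and is itself a textbook SREBP target (ENSG00000186480, chromosome 7, 155297776 to 155310235, plus strand), was at 177, 176 and 179 FPKM after corilagin and at 101, 98.9 and 108 FPKM in DMSO. It was the most abundant of the 31 genes after corilagin, and it rose 1.73-fold (difference 0.78, SE 0.0699, limma adjusted p = 0.00197; 0.72 with the GC trend removed). Its paralog INSIG2 was at 7.23, 6.65 and 8.22 FPKM against 4.21, 4.76 and 7.22 FPKM, with DMSO replicate 3 inside the corilagin range. The INSIG2 difference of 0.41 did not pass (limma adjusted p = 0.112) and was -0.08 with the GC trend removed. Whether the changes of the paralogs differ was not tested.

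SREBF2, which encodes SREBP2, was at 67.4, 64.3 and 62.1 FPKM after corilagin and at 71.7, 68.9 and 53.3 FPKM in DMSO. The corilagin values fell inside the control range, with a difference of 0.01 (SE 0.121, limma adjusted p = 0.956). It was 0.17 with the GC trend removed (adjusted p = 0.0272), 0.27 against DMSO replicate 3 by itself (adjusted p = 0.00248) and -0.12 without that library (adjusted p = 0.0229), so its call and direction changed with the controls used. SCAP, the escort protein, was at 11.2, 11.7 and 11.0 FPKM against 17.3, 16.3 and 12.9 FPKM, and fell to 0.731 of DMSO (difference -0.41, limma adjusted p = 0.0422). Its call was lost without any library other than DMSO replicate 3 (adjusted p from 0.123 to 0.151), and against DMSO replicate 3 by itself (difference -0.17, adjusted p = 0.0522). The difference was -0.19 with the GC trend removed (adjusted p = 0.0148).

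The Golgi proteases that cut SREBP2 did not pass as deposited. MBTPS1 was at 9.49, 9.11 and 9.89 FPKM against 10.4, 10.2 and 8.95 FPKM in DMSO (limma adjusted p = 0.694). MBTPS2 was at 2.74, 2.53 and 2.35 FPKM against 1.84, 1.82 and 2.89 FPKM (difference 0.17, limma adjusted p = 0.356). DMSO replicate 3 held the highest MBTPS2 value of the 6 libraries, and the difference was -0.32 with the GC trend removed (adjusted p = 0.0323).

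STARD4, a carrier that moves sterol between membranes (ENSG00000164211, chromosome 5, 111496033 to 111512590, minus strand), was at 20.8, 21.7 and 20.6 FPKM after corilagin and at 6.26, 6.91 and 12.6 FPKM in DMSO. The groups did not overlap, but DMSO replicate 3 lay between the other controls and the corilagin libraries. The rise was 2.44-fold over all controls (difference 1.26, SE 0.225, limma adjusted p = 0.0126), 3.19-fold over DMSO replicates 1 and 2, and 1.66-fold over replicate 3. The difference was 0.74 with the GC trend removed (adjusted p = 5.94e-05). The call was lost without any 1 corilagin library or DMSO replicate 2, with adjusted p from 0.0543 to 0.0648.

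**Figure D3:**
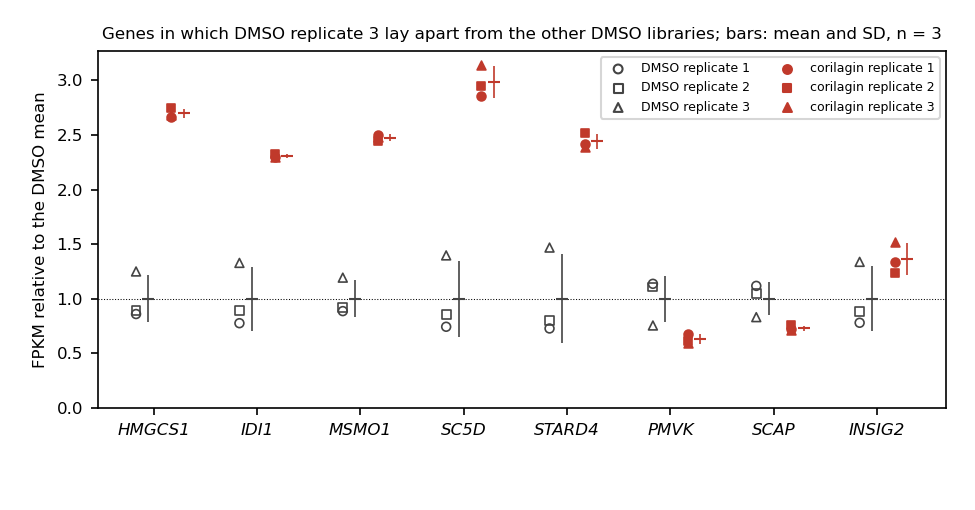
FPKM of 8 genes, picked because DMSO replicate 3 lay apart in them, relative to the DMSO mean, by library, with mean and SD (n = 3) beside each group. DMSO replicate 3 (open triangle) lies nearer to the corilagin libraries than DMSO replicates 1 and 2 do in each gene shown, and within the corilagin range for INSIG2.

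None of the 3 tested genes of the LXR arm passed the test. NR1H2, the widely expressed LXR-beta, was at 21.5, 21.6 and 19.7 FPKM after corilagin and at 29.2, 29.4 and 21.5 FPKM in DMSO (difference -0.32, limma adjusted p = 0.0987). NR1H3, the LXR-alpha of macrophages and liver, was at 4.05, 4.04 and 3.90 FPKM against 3.51, 3.35 and 3.09 FPKM (difference 0.21, adjusted p = 0.0798). The NR1H2 groups overlapped through DMSO replicate 3, and those of NR1H3 did not overlap. With the GC trend removed NR1H3 passed (0.35, adjusted p = 0.00260) and NR1H2 did not (-0.12, adjusted p = 0.109).

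The efflux pumps were at low levels. ABCA1, which loads cholesterol onto lipoprotein particles, was at 1.17, 0.946 and 0.858 FPKM after corilagin and at 1.13, 1.03 and 1.89 FPKM in DMSO, with overlapping groups (difference -0.22, limma adjusted p = 0.248). Against DMSO replicate 3 by itself its difference was -0.54. ABCA1 passed the filter of that fit through this 1 library, so the value is no support for a fall. ABCG1 had 0 to 3 fragments per library and was not tested, so no difference was detectable at this depth. MYLIP, the LXR-induced ligase that removes lipoprotein receptors, was at 25.0, 24.8 and 24.8 FPKM against 20.9, 21.8 and 23.5 FPKM (1.13-fold, limma adjusted p = 0.131).

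Another 54 genes of sterol supply, use, sensing and trafficking were listed by function. Of the 51 tested, 12 rose, 4 fell and 35 did not pass, beside 11.9% and 13.5% of all genes, with a median difference of 0.09. The median of all genes tested was 0.03. Leaving out any library other than DMSO replicate 3 left 1 to 4 rises and 0 or 1 fall. Of all genes, those fits called 125 to 373 higher and 175 to 482 lower, of 9843 to 9886 tested. Leaving out DMSO replicate 3 gave 23 rises and 17 falls, where 40.8% of all genes were higher and 36.5% lower. The 12 rises include 3 of 11 acetyl-CoA supply and accessory genes. Among them were ACSS2, a synthetase that makes acetyl-CoA from acetate (1.80-fold, difference 0.81, limma adjusted p = 0.00763), and ERG28, a scaffold of the late sterol enzymes (1.35-fold, adjusted p = 0.0328). Of 9 genes of sterol sensing, TMEM97, a sterol-regulated membrane protein that binds the lysosomal transporter NPC1, rose 1.93-fold (difference 0.93, SE 0.0718, limma adjusted p = 0.00142). It was the 1 gene of these 16 called in all 6 fits that left out a library. RNF139, a ubiquitin ligase of the endoplasmic reticulum, rose 1.37-fold, and ERLIN1, which takes part in sensor turnover, fell to 0.737 of DMSO.

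Among 13 trafficking and esterification genes, 4 rose and 2 fell. OSBPL9, an oxysterol-binding protein relative, rose 1.88-fold and NPC1, which exports cholesterol from lysosomes, 1.32-fold. GRAMD1A, which carries cholesterol inward from the plasma membrane, fell to 0.668 and SCARB1, a lipoprotein receptor, to 0.754 of DMSO. Of 12 genes of isoprenoid use, 1 rose and 1 fell. FNTA, a subunit shared by protein prenyltransferases, rose 1.42-fold but was not called after GC removal (difference 0.08, adjusted p = 0.339), and ICMT, which methylates prenylated proteins, fell to 0.690 of DMSO. Of 6 LXR partners and targets, SCD, a fatty acid desaturase, and PLTP, a phospholipid transfer protein, rose 1.29-fold and 1.45-fold, and 4 did not pass.

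**Figure D4:**
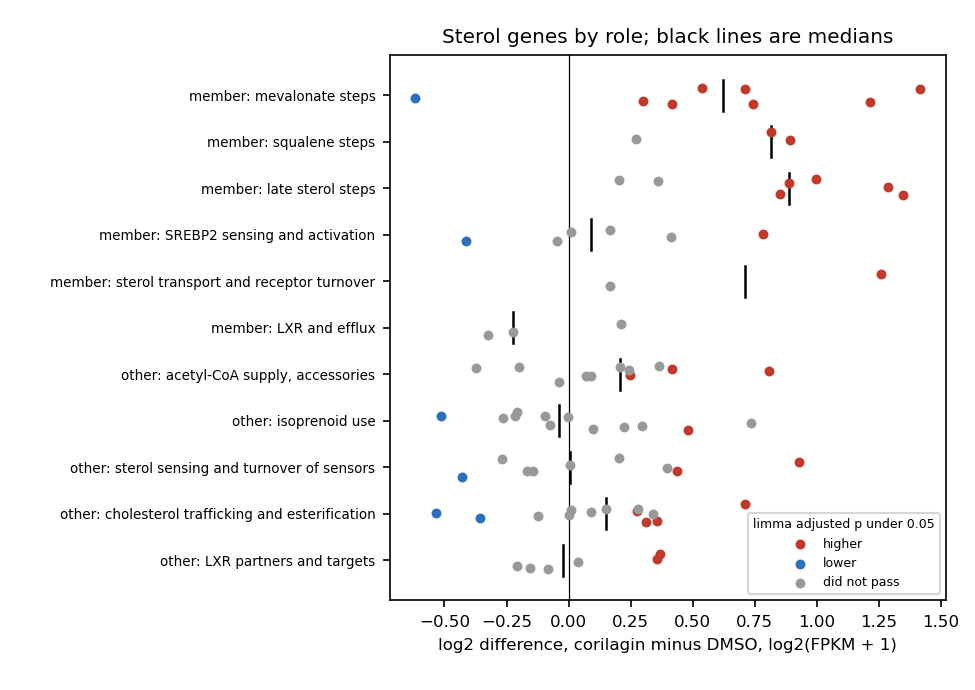
Difference (log2(FPKM + 1), corilagin minus DMSO) of each tested gene in the 6 roles described and in the 5 lists of further sterol genes, coloured by its limma call, with the median as a black line. Medians of the synthesis roles lie at 0.62, 0.82 and 0.89, and those of the 5 further lists between -0.04 and 0.21.

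Markers of the labelled cell type were present. CD33, LYZ, SPI1, CSF1R and CEBPA were detected in all libraries, and MPO was at 1.25 to 1.93 FPKM in DMSO and below 1 FPKM after corilagin. The 6 myeloid markers summed to 209 to 222 FPKM after corilagin and 260 to 313 FPKM in DMSO, with LYZ and MPO lower and 4 not passing. MPO passed the filter through its DMSO values, so its call is no support for a fall. After corilagin, 5 of the 6 lay below every DMSO library, as did 23.3% of all genes tested. The differences of SPI1, CSF1R and CEBPA, at 57.3% to 65.9% GC, were -0.37, -0.35 and -0.39. Removing the GC trend brought them to -0.12, -0.19 and -0.14, and none of them passed in either fit. That of LYZ, at 41.5% GC, went from -0.66 to -0.95. Of 5 genes listed as markers of other cell types, EPCAM was at 0 in every library, and CD3E, COL1A1 and ALB had at most 0.108 FPKM. PECAM1, listed for endothelial cells, was at 15.2 to 21.3 FPKM, and which cells its reads came from was not tested. These 5 summed to 19.9 to 21.4 FPKM after corilagin and 15.3 to 16.3 FPKM in DMSO, the difference lying mostly in PECAM1 (difference 0.35, limma adjusted p = 0.0217). Their part in the sterol results was not tested.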

How the data were processed

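Poly(A) RNA of 6 MV411 libraries was sequenced as read pairs, per the labels' protocols. The submitters' processing notes name fastp 0.22.0, HISAT2 2.1.0, HTSeq 0.9.1, DESeq 1.38.3 and GRCh38 without settings. The authors deposited 1 table of FPKM, 1 column per library, and the sources used here give neither its annotation nor its filters. Whole fragments were recovered from the FPKM steps (tolerance 0.01), with library totals set so that gene lengths came out as whole bases. Coordinates, exon overlaps and the GC content of the longest transcript came from GENCODE 29 (GRCh38).

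The 9868 genes whose mean reached 1 FPKM were fitted on log2(FPKM + 1) with all 6 libraries in limma 3.58.1 (R 4.3.3), using moderated 2-sided tests with an intensity trend and an adjusted p threshold of 0.05. The GC trend was removed with a natural spline (5 degrees of freedom) per library, which also removes any true difference that follows GC content. The fit was tested on simulated data.

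The genes, lists and tests were chosen with earlier results of these data known. All 31 genes were to be accounted for, and in the further lists up to 2 rises and 2 falls per list were named by size. In the text on markers and exon overlaps, genes were named after their values were seen. Some markers of other cell types are not reported here.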

Additional observations from a re-analysis of the deposited data

How the results depend on the processing

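Of the 16 rising genes, 12 were called in all 6 fits that left out 1 library, and 13 were called under every other alternative run. Leaving out 1 library gave 12 to 23 higher and 0 to 4 lower genes among the 31, medians of 0.42 to 0.61, and 1 to 23 higher and 0 to 17 lower among the other sterol genes. The fit without DMSO replicate 3 called 77.3% of all genes. Without any other library, 125 to 373 genes were higher and 175 to 482 lower, of 9843 to 9886 tested. With all 6 libraries those numbers were 1171 and 1331 of 9868.

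The median of 0.42 was 0.51 and 0.46 with pseudocounts of 0.1 and 0.5, 0.73 with a minimum mean of 5 FPKM, 0.52 with equal sums per library, 0.36 with quantile normalization, 0.47 with the GC trend removed, 0.60 against DMSO replicate 3 by itself and 0.52 in limma-voom on recovered fragments, an alternative chosen after seeing the data. Without a filter, no gene of the 31 was called lower (limma count of 0, with 3 at an unadjusted p under 0.05, PMVK at adjusted p = 0.0559 and SCAP at 0.0641) and 6 other sterol genes were higher. That fit called 934 of 15921 genes higher and 1026 lower. The other sterol genes also numbered 6 higher with median-of-ratios scaling, 11 lower with the GC trend removed, and 19 higher and 8 lower against DMSO replicate 3. With median-of-ratios scaling, 955 of all 9859 genes were higher, beside those 6 of 51 other sterol genes tested. With the GC trend removed, 2267 of all 9859 genes (23.0%) were lower, beside those 11 of 51. The shares of all genes against DMSO replicate 3 are given in the Results. Equal sums moved the median of all genes from 0.03 to 0.14 and the higher share of all calls from 46.8% to 60.5%. The MBTPS2 difference turned to -0.32 with the GC trend removed, and that of SREBF2 ran from -0.12 to 0.089 when 1 library was left out. Where a value moved, the cause was not tested.

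Deviations of same-numbered libraries correlated at 0.280, 0.0787 and 0.339 across genes, and those of differently numbered libraries at -0.323 to 0.279. For each corilagin library the same-numbered control had the highest value. With the GC trend removed, corilagin replicate 1 correlated at 0.0961 with DMSO replicate 1 and at 0.0988 with DMSO replicate 2. These values do not settle whether the numbers mark pairs. The main fit used no pairs, and fits with a replicate block are given beside it. With a replicate block, 17 genes were higher and 2 lower, beside 1547 and 1330 of all 9868 genes. With the replicate block and the GC trend removed, 20 were higher and 3 lower, beside 2105 and 2207 of all 9859 genes, the median was 0.47, 12 other sterol genes were lower and the MBTPS2 difference was -0.32.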
